A study of Mus musculus with 45 samples.

Results

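The mouse p200 (HIN-200) family comprises interferon-induced genes that lie side by side on chromosome 1. The 8 members *Ifi203*, *Ifi204*, *Ifi207*, *Ifi209*, *Ifi211*, *Ifi213*, *Mndal* and *Aim2*, taken by name as a family, were followed through RNA sequencing of microglia and brain tissue, and all 8 were among the 42929 genes present in each of the 3 deposited tables. Most proteins of the family join a pyrin domain, which binds other pyrin domains, to a HIN domain, which binds DNA. AIM2 senses double-stranded DNA in the cytosol and assembles an inflammasome with the adaptor ASC (*Pycard*) and caspase-1, and p204, the product of *Ifi204*, is a DNA-binding protein that can act together with STING. *Mndal* encodes a relative of the human myeloid nuclear differentiation antigen. Many members are induced by type I interferon and are best known from macrophages and other myeloid cells, to which microglia belong.

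All mice were C57BL/6, and no group carried an engineered allele. Slice microglia came from coronal brain slices of neonatal pups that had been cultured for 2 weeks and then kept for a further 24 h in medium only (9 samples), with TNF at 50 ng/mL (11 samples) or with GM-CSF at 20 ng/mL (9 samples). TNF is the inflammatory cytokine tumor necrosis factor, and GM-CSF is a growth factor of macrophages and granulocytes. Per the labels, 3 slices were pooled for each sample, whereas the study's figure legend gives 2 to 3. Adult microglia came from mice of 10 to 15 weeks, female per the study's methods, 24 h after 1 mg/kg of the bacterial cell wall component lipopolysaccharide (LPS; 4 samples) or after PBS (4 samples). Both kinds of microglia were sorted as CD11b high, CD45 intermediate cells. Whole brain tissue came from mice of that age, 4 of which had received LPS at 1 mg/kg 24 h before and 4 of which were untreated, so that the brain controls, unlike the PBS mice, were not injected. Per the study's methods, the pregnant mice that supplied the slices and the adult mice came from different vendors. Vendor, age, culture and library run therefore cannot be told apart when levels of slice and adult microglia are set side by side.

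Levels are given in CPM, a library's counts scaled to a common total with the TMM factors of edgeR, and where members are compared with one another as CPM per kilobase of exon. A gene counted as called where it differed by more than 1.5-fold and its adjusted p was below 0.05 in edgeR's quasi-likelihood test. The test was run across all genes of a table that passed a low-count filter. Depth ranged from 5973364 to 9165485 counts over the slice libraries, from 11391564 to 14216005 over the adult microglia and from 8199863 to 10368578 over the brain libraries. The summed level of 10 microglial markers was lower with each treatment of sorted cells, without overlap. It lay between 21968 and 30701 CPM in medium, 12890 and 16861 CPM with TNF and 16248 and 18058 CPM with GM-CSF, and between 57471 and 63639 CPM with PBS and 44277 and 48100 CPM with LPS. In brain tissue it lay between 321 and 511.5 CPM, where 5 neuronal markers summed to 5175 to 5782 CPM. In sorted cells the neuronal markers stayed at or under 11.2 CPM and markers of T, B and NK cells at or under 1.54 CPM. In slice cells border macrophage markers summed to 399 to 1108 CPM in medium, 445 to 1269 CPM with TNF and 347 to 995 CPM with GM-CSF. Oligodendrocyte markers reached up to 164 CPM and neutrophil markers up to 104 CPM in slice cells, both with TNF. The part of these cells in the members' levels was not tested.

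The 8 genes span 591794 bases of chromosome 1 (GRCm38, GENCODE M21). *Aim2* (ENSMUSG00000037860, 173350879 to 173466040, plus strand) lies at the low-coordinate end. It is followed by *Ifi213* (ENSMUSG00000073491, 173566283 to 173599274, minus strand) and *Ifi209* (ENSMUSG00000043263, 173630917 to 173647928, plus strand). *Ifi207* (ENSMUSG00000073490, 173723427 to 173741747) and *Ifi204* (ENSMUSG00000073489, 173747293 to 173766943) come next, both on the minus strand. At the other end, also on the minus strand, the annotated span of *Mndal* (ENSMUSG00000090272, 173849126 to 173942491) takes in *Ifi211* (ENSMUSG00000026536, 173896345 to 173913046) and most of *Ifi203* (ENSMUSG00000039997, 173920407 to 173942672). *Mndal* and *Ifi203* share 37 exon bases on the same strand, so reads there cannot be assigned by strand either.

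How far the members can be told apart by short reads was measured from the annotated transcripts. For each member, every window of a read's length, 75 bases for slice libraries and 50 bases for the others, was looked up in the transcripts of all other genes. *Ifi211* was the least distinct, with 63.6% of its 75-base windows and 72.8% of its 50-base windows found unchanged in another gene, mainly *Ifi205* (40.6% of 75-base windows) and *Ifi204* (23.0%). In *Ifi209* 23.1% of 75-base windows were shared, all of them with *Ifi214*. *Ifi204* shared 13.2%, *Mndal* 11.1%, *Ifi213* 8.07%, *Ifi203* 5.71% and *Ifi207* 2.80%, whereas no 75-base window of *Aim2* was shared. How such reads were counted is not given in the sources used here. The values of *Ifi211*, and to a lesser degree *Ifi209*, are therefore uncertain between neighbours, while those of *Aim2* and *Ifi207* depend little on shared reads.

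**Figure D1:**
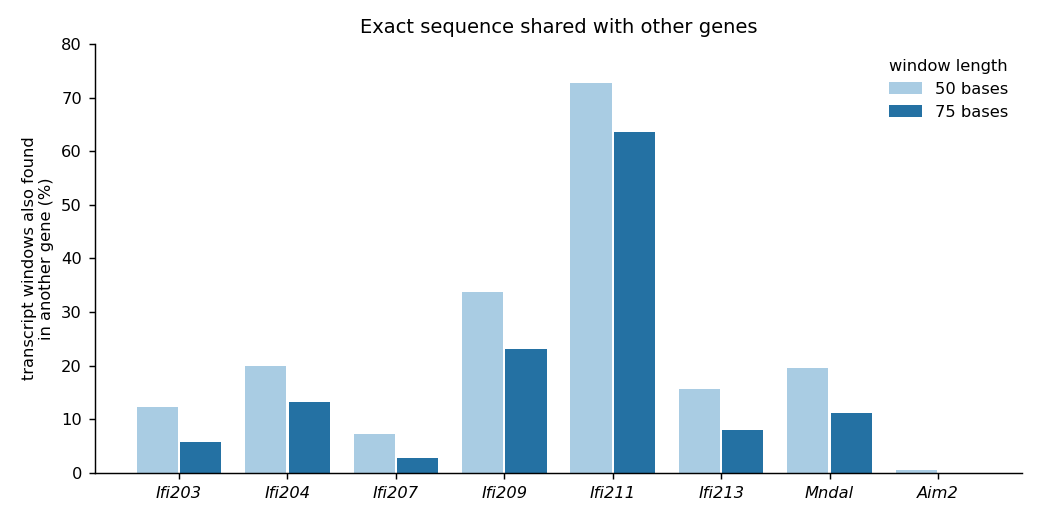
Share of transcript windows (%, vertical axis) of each member that occur letter for letter in a transcript of another gene, for windows of 50 and 75 bases (bars). *Ifi211* stands out with 72.8% and 63.6%, and *Aim2* has 0.628% and 0%.

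Interferon acts on many of its target genes through the interferon-stimulated response element (ISRE), which binds proteins of the IRF family. Promoter windows of RefSeq (GRCm38.p6), 250 bases before to 50 after each start, were found for 7 members (9 windows) and not for *Ifi204*. The ISRE core, spelled GAAANNGAAA and searched on both strands, was found in 5 of these 7, namely *Ifi203*, *Ifi207*, *Ifi211*, *Ifi213* and *Mndal*. Of all promoters listed, 3.44% of 32851 windows, or 3.99% of 27025 genes, held it. The stretches are shown because their core is nearly the same. Each is written 5′ to 3′ on the minus strand, the strand of the gene, and capitals mark the ISRE core. They lie at chr1:173599311-173599370 for *Ifi213*, chr1:173741816-173741875 for *Ifi207*, chr1:173913049-173913108 for *Ifi211*, chr1:173880189-173880248 for *Mndal* and chr1:173942493-173942552 for *Ifi203*.
Ifi213: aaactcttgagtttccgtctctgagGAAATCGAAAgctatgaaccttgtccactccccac
Ifi207: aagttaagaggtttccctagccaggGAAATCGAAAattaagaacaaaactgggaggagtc
Ifi211: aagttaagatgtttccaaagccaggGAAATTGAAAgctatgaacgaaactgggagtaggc
Mndal: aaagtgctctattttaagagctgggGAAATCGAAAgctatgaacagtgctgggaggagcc
Ifi203: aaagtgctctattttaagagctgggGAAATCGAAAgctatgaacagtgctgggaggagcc

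The core ended 25 to 63 bases before the start of transcription. The stretches of *Ifi203* and *Mndal* were identical in 60 of 60 bases, and those of *Ifi207* and *Ifi211* in 50 of 60. The other pairs of the stretches shown matched in 29 to 41 of 60 bases, with 29 to 34 for each pair that includes *Ifi213*. *Mndal* held a second match on the opposite strand in its other window, at chr1:173880003-173880012. The promoter of *Ifi209* held no ISRE core but an NF-kB type element, GGGAACTTCC at chr1:173630810-173630819, a match to GGGNNNTTCC, which 5.56% of all windows held. Neither element was found in the window of *Aim2*. A further interferon response element, GAS (TTCNNNGAA), was also searched and found in 0 of the 7 members, against 9.55% of all genes listed. A match is a match of letters and was not shown to be bound.

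TNF raised 7 of the 8 members in slice microglia, against 9.1% of the 11313 genes tested that were called higher (20.8% in either direction). The size of the rise differed widely between members, from 3.18-fold for *Ifi207* to 93.2-fold for *Ifi213*, and *Aim2* was not called. All 8 members passed the low-count filter. *Ifi213*, however, reached 10 counts in only 1 of 9 medium libraries and 3 of 9 GM-CSF libraries. *Ifi203* reached 10 counts in 5 of 9 medium libraries, 5 of 9 GM-CSF libraries and all 11 TNF libraries. These genes were therefore tested because of their level with TNF, and both are among the 7 raised. The sum of the 8 members was 142 ± 24.4 CPM (SD, n = 9) in medium and 867 ± 215 CPM (n = 11) with TNF.

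*Ifi204* ranged from 30.2 to 75.7 CPM in medium (median 42.5) and from 194 to 385 CPM with TNF (median 245). The groups did not overlap, and TNF exceeded medium by 2.60 on the log2 scale (SE 0.19, 6.06-fold, edgeR adjusted p 1.87e-13). *Ifi207*, the member with the highest mean in medium, ranged from 35.0 to 69.1 CPM (median 47.2) and with TNF from 80.8 to 221 CPM (median 162). Here too every TNF library lay above every medium library, with a smaller log2 fold change of 1.67 (SE 0.20, adjusted p 3.31e-08).

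*Ifi209*, *Ifi211* and *Ifi213* were low in medium and rose most. *Ifi209* had 1.30 to 10.9 CPM in medium (median 8.01) and 162 to 385 CPM with TNF (median 227), which is 4.99 higher on the log2 scale (SE 0.26, 31.8-fold, edgeR adjusted p 1.74e-16). *Ifi211* had 0.722 to 8.99 CPM in medium (median 3.45) and 65.1 to 134 CPM with TNF (median 85.9; log2 4.45, SE 0.27, 21.9-fold, adjusted p 6.59e-16). For both genes a wide gap separated the groups. *Ifi213* had 0 to 11 counts per medium library, 36 counts over all 9 libraries, with 4 libraries at 0. With TNF it had 195 to 546 counts per library, or 27.8 to 67.0 CPM (median 53.8). Its log2 fold change of 6.54 (SE 0.54, adjusted p 5.83e-12) is less precise than the others, and the ratio of summed CPM was 90.2 with a 95% counting interval of 65.1 to 129. This interval, like the others given here, covers counting error only.

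*Ifi203* and *Mndal*, which share the ISRE stretch, were the least abundant members with TNF when set per length. *Ifi203* had 0 to 5.46 CPM in medium (median 1.30) and 4.99 to 27.1 CPM with TNF (median 12.9), and 9 of 11 TNF libraries lay above every medium library (log2 2.80, SE 0.50, edgeR adjusted p 1.97e-05). *Mndal* went from 1.20 to 5.32 CPM (median 2.54) to 7.34 to 31.2 CPM (median 11.9), without overlap (log2 2.36, SE 0.40, adjusted p 1.03e-05). These members varied most among TNF libraries for their level, with an SD of 7.07 CPM around a mean of 13.5 and of 7.61 CPM around 14.4.

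*Aim2* stood at 21.8 to 44.3 CPM in medium (median 32.2) and 26.6 to 55.3 CPM with TNF (median 33.9). The groups overlapped in 9 of 11 TNF libraries, and the difference was not called (log2 0.13, SE 0.14, edgeR adjusted p 0.503). The slice samples carry codes 1A, 1B, 2A and 2B in their titles, which the labels do not explain. The study's methods describe 4 pooled independent experiments without tying them to the codes. TNF called 7 members within codes 1A and 1B and 7 within codes 2A and 2B. Monocyte markers (6 genes) summed to 0 to 8.57 CPM in medium and 33.7 to 98.7 CPM with TNF. Most of that was *Ly6i* (57.2 CPM with TNF), whereas *Ccr2* was at 0.245 CPM with TNF and 1.11 CPM in medium and *Ly6c2* and *Plac8* stayed under 1 CPM on average.

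**Figure D2:**
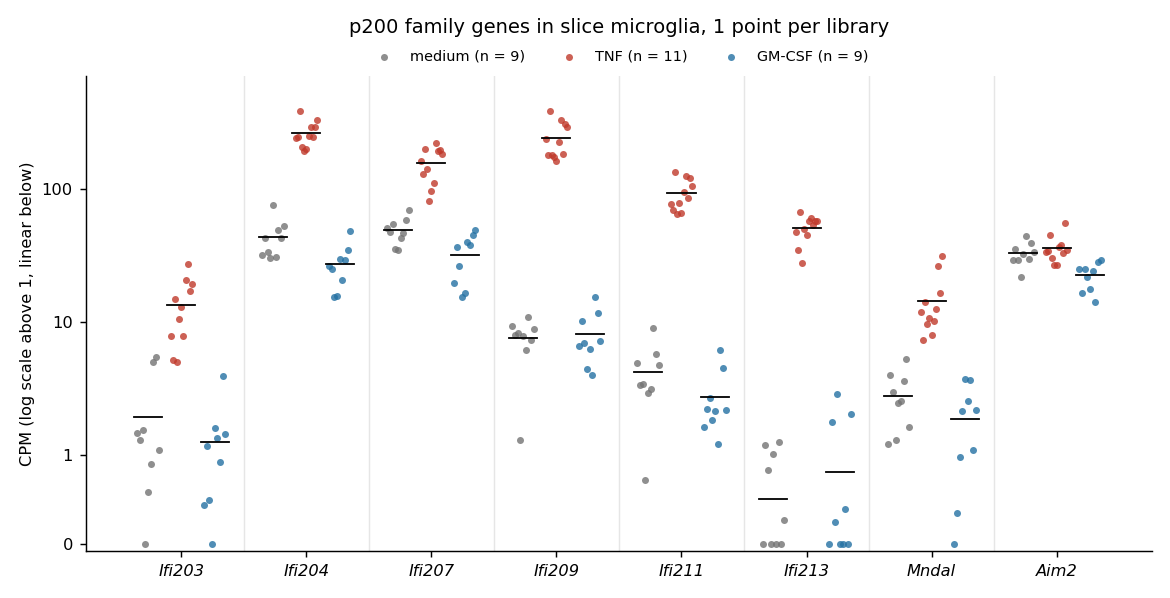
Level of each member in slice microglia (CPM, log scale above 1 and linear below), 1 point per library, with the arithmetic mean as a black line, for medium (9), TNF (11) and GM-CSF (9). TNF libraries lie above all medium libraries for *Ifi204*, *Ifi207*, *Ifi209*, *Ifi211*, *Ifi213* and *Mndal*, while *Aim2* overlaps.

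GM-CSF lowered *Ifi204* and *Ifi207*. These 2 of 8 stand against 5.96% of genes called lower (4.06% when libraries were scaled by total counts). No member was called higher by edgeR, DESeq2 or limma-voom, against 4.84% of genes, and 0 of the 4 members at an unadjusted p under 0.05 in edgeR lay above medium. *Ifi204* ranged from 15.3 to 48.2 CPM (median 26.5) with GM-CSF, and 7 of 9 libraries lay below every medium library (log2 -0.67, SE 0.19, 1.59-fold, edgeR adjusted p 0.00814). *Ifi207* ranged from 15.6 to 49.5 CPM (median 36.9), with 4 of 9 libraries below every medium library (log2 -0.62, SE 0.21, adjusted p 0.0287). Both are just past the fold limit, and in no member were the groups apart.

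*Aim2* had 14.0 to 29.3 CPM with GM-CSF (median 24.2) and passed the p limit but not the fold limit (log2 -0.54, SE 0.15, 1.46-fold, edgeR adjusted p 0.0058). *Ifi211* (log2 -0.63, SE 0.30, adjusted p 0.123), *Ifi203* (log2 -0.61, SE 0.54) and *Mndal* (log2 -0.60, SE 0.43) had values below 0 that were not called. *Ifi209* (log2 0.10, SE 0.27) was not called either, and *Ifi213*, with 53 counts in all GM-CSF libraries, had a log2 value of 0.55 (SE 0.70). The calls depended on the scaling and on the samples. Scaling by total counts called 0 members, the samples of title codes 1A and 1B alone called 2 and those of codes 2A and 2B alone called 0. With the title code as a term 1 was called, since *Ifi207* (log2 -0.58, edgeR adjusted p 0.00508) fell under the fold limit. The microglial marker sum was also lower with GM-CSF, at a mean of 17117 CPM against 26874 CPM in medium, and its part in the falls of *Ifi204* and *Ifi207* was not tested.

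Set directly against GM-CSF, TNF gave higher levels of all 8 members, against 8.25% of genes called higher (6.13% when scaled by total counts) and 7.96% called lower. Of these members, *Ifi203* and *Ifi213* were tested because of their level with TNF. In 7 members the groups did not overlap. The log2 differences were 5.99 for *Ifi213* (SE 0.51), 5.08 for *Ifi211* (SE 0.28), 4.89 for *Ifi209* (SE 0.26), 3.41 for *Ifi203* (SE 0.52), 3.26 for *Ifi204* (SE 0.19), 2.96 for *Mndal* (SE 0.42) and 2.29 for *Ifi207* (SE 0.21). *Aim2* was the eighth, at 0.67 (SE 0.14, 1.596-fold, edgeR adjusted p 0.000315), with 9 of 11 TNF libraries above every GM-CSF library. Its call was lost with scaling by total counts (0.50) and within title codes 1A and 1B (0.57), where the fold fell under the limit.

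The treatments also reordered the family. Per kilobase of exon, the mean level in medium was 14.3 CPM for *Ifi207*, 12.1 for *Ifi204* and 9.35 for *Aim2*, whose ranges overlapped from each to the next, and then 2.37 for *Ifi211* and 2.13 for *Ifi209*. A gap without overlap lay between *Aim2* and *Ifi211*. *Mndal* (0.767), *Ifi203* (0.287) and *Ifi213* (0.0741) came last. With TNF the order became *Ifi204* (73.5), *Ifi209* (68.1), *Ifi211* (51.9) and *Ifi207* (45.6), again with overlapping ranges, and a gap separated them from *Aim2* (10.2), *Ifi213* (7.41), *Mndal* (3.97) and *Ifi203* (2.01). With GM-CSF the order began as in medium, with *Ifi207* at 9.33, *Ifi204* at 7.66 and *Aim2* at 6.42 CPM per kilobase.

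In adult microglia LPS raised 5 of the 6 members that could be tested, against 14.4% of the 12987 genes tested that were called higher. *Ifi211* reached 10 counts in 2 of 4 PBS libraries and in 4 of 4 LPS libraries. It was therefore tested because of its level with LPS. *Ifi203* and *Mndal* were nearly absent there. *Ifi203* had 0 to 3 counts in PBS and 1 to 4 in LPS libraries, and *Mndal* had 1 count over all PBS libraries and 0 to 5 counts per LPS library, so neither passed the filter. *Aim2*, by contrast, had its highest level of the study.

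LPS replicate 2 stood apart from the other LPS libraries in each of the 5 called members, and it was also the shallowest library of the table, with 11391564 counts. Values are therefore given for each library. *Ifi204* had 20.0, 21.1, 9.89 and 14.3 CPM in PBS replicates 1 to 4 and 206, 54.5, 200.9 and 225 CPM in LPS replicates 1 to 4. All LPS libraries exceeded all PBS libraries, and the mean of the other 3 LPS libraries was 3.87 times replicate 2 (log2 3.39, SE 0.50, 10.5-fold, edgeR adjusted p 0.00106). *Ifi207* had 3.66, 3.37, 1.05 and 1.30 CPM in PBS and 158, 20.2, 107.5 and 100.5 CPM in LPS, again without overlap and with the largest change of the family in this tissue (log2 5.35, SE 0.76, 40.7-fold, adjusted p 0.000906).

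For the next members replicate 2 fell among the PBS libraries. *Ifi209* had 15.4, 15.1, 9.97 and 13.5 CPM in PBS and 68.5, 15.2, 57.2 and 61.6 CPM in LPS (log2 1.91, SE 0.45, edgeR adjusted p 0.00989). *Ifi211* had 0.789, 2.58, 0.161 and 0.216 CPM in PBS and 21.6, 1.71, 13.7 and 19.04 CPM in LPS (log2 3.87, SE 0.98, adjusted p 0.013). *Ifi213* had 2.65, 3.23, 0.804 and 0.936 CPM in PBS and 15.1, 1.71, 9.73 and 15.5 CPM in LPS (log2 2.45, SE 0.72, adjusted p 0.0217). In these 3 genes 3 of 4 LPS libraries exceeded every PBS library. Without LPS replicate 2 the log2 values became 3.69 for *Ifi204*, 5.68 for *Ifi207*, 2.21 for *Ifi209*, 4.24 for *Ifi211* and 2.80 for *Ifi213*, and the same number of members, 5, was called. The call of *Ifi213* was lost without LPS replicate 4 (adjusted p 0.0547) or without PBS replicate 3 (adjusted p 0.0539), each of which left 4 called.

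*Aim2* had 70.6, 71.0, 67.3 and 71.2 CPM in PBS and 66.2, 65.7, 70.7 and 69.1 CPM in LPS. The groups overlapped and replicate 2 was no exception (log2 -0.04, SE 0.06, edgeR adjusted p 0.582). Per kilobase, *Aim2* was the top member in PBS, at 20.0 CPM, with *Ifi204* (4.58) and *Ifi209* (3.80) below it without overlap. After LPS *Ifi204* (48.2) and *Ifi207* (28.2) had means above that of *Aim2* (19.4), but with ranges that overlapped its range, since replicate 2 lay below *Aim2* in both genes.

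The interferon-induced reference genes, a list of 12 that holds no member, were low in the same LPS library. Their sum was 168 CPM in LPS replicate 2, 629 to 867 CPM in the other LPS libraries and 87.6 to 165 CPM in PBS. The PBS libraries also split alike, with replicates 1 and 2 above replicates 3 and 4 both in this sum and in *Ifi204*, *Ifi207*, *Ifi209*, *Ifi211* and *Ifi213*. Other genes of the lists lay well above PBS in replicate 2. *Il1b*, the gene of the inflammasome cytokine interleukin-1 beta, had 49.0 CPM there, against 2.72 to 4.39 CPM in PBS and 86.1 to 160 CPM in the other LPS libraries. The kinase gene *Ikbke* had 5.64 CPM, against 0.144 to 0.288 CPM in PBS and 17.2 to 25.2 CPM in the other LPS libraries. The microglial marker sum of replicate 2, 48089 CPM, lay within the 44277 to 48100 CPM of the LPS group. In this table neutrophil markers (6 genes) summed to 40.6 to 83.4 CPM in PBS and 1.61 to 8.30 CPM in LPS libraries, opposite to the members, and border macrophage markers (6 genes) to 9.65 to 14.9 and 24.3 to 36.1 CPM. Endothelial markers (5 genes) summed to 40.7 to 49.5 CPM in PBS and 15.0 to 17.4 CPM in LPS libraries, and oligodendrocyte markers (5 genes) to 75.6 to 88.7 and 59.0 to 67.6 CPM. Their part in the result was not tested.

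**Figure D3:**
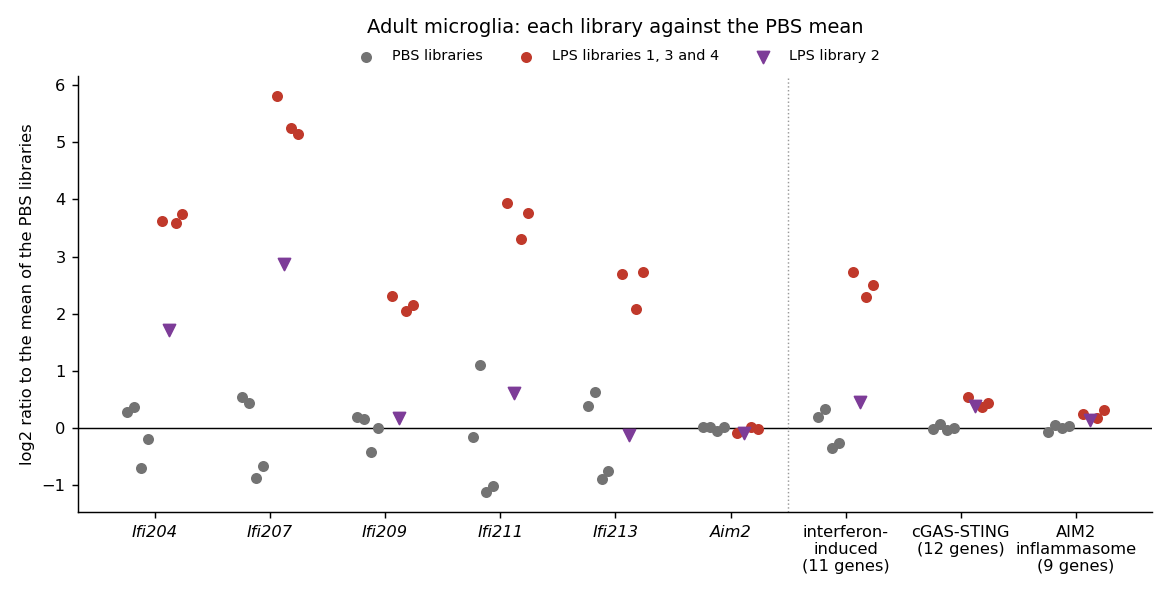
log2 ratio of each adult microglia library to the mean of the 4 PBS libraries (CPM plus a pseudocount of 0.5), for the 6 tested members and for the median gene of 3 fixed lists. LPS library 2 lies near the PBS libraries for *Ifi209*, *Ifi211*, *Ifi213* and the interferon-induced list, between the groups for *Ifi204* and *Ifi207*, and with the other LPS libraries for the cGAS-STING list.

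In brain tissue the members were scarce, 0 to 27 counts per library, and LPS raised *Ifi207*, *Ifi209* and *Ifi211*, against 2.63% of the 15083 genes tested that were called higher. Only 5 members passed the filter. *Ifi207*, *Ifi209* and *Ifi211* reached 10 counts in 0 of 4 untreated libraries and so were tested because of their level with LPS, which makes their number no evidence about the family. *Ifi207* had 5, 4, 5 and 2 counts in the untreated libraries and 14, 20, 23 and 25 with LPS (log2 2.49, SE 0.36, edgeR adjusted p 0.000282). *Ifi209* had 0, 1, 1 and 0 counts against 12, 16, 9 and 10 (log2 4.40, SE 0.64, adjusted p 0.000187). Because only 2 counts stand in the untreated group, the ratio of summed CPM, 26.7, has a 95% counting interval of 6.995 to 227. *Ifi211* had 1, 0, 0 and 3 counts against 10, 14, 9 and 22 (log2 3.78, SE 0.65, adjusted p 0.00099). The LPS and untreated libraries did not overlap in any of the 3.

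*Ifi203* and *Mndal* were the most abundant members of untreated brain, and neither was called. *Ifi203* had 22, 10, 27 and 23 counts in the untreated libraries and 26, 25, 11 and 23 with LPS (log2 0.21, SE 0.32, edgeR adjusted p 0.753). *Mndal* had 15, 13, 13 and 19 against 25, 15, 13 and 16 (log2 0.36, SE 0.27, adjusted p 0.461). Per kilobase *Mndal* (0.420 CPM) and *Ifi203* (0.312 CPM) led the order in untreated brain, with overlapping ranges, whereas in PBS microglia the same genes were last, at 0.00554 and 0.0164 CPM per kilobase. Brain tissue held about 345 CPM of the summed microglial markers, against 59680 CPM in PBS microglia. These values come from tables that were normalized separately and made with different library kits, and the difference between them was not tested.

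The 3 members under the filter had too few counts to be tested with the rest. *Ifi204* had 9 counts in the untreated and 31 in the LPS libraries, a ratio of 3.92 with a counting interval of 1.82 to 9.35, and *Ifi213* had 7 against 34, a ratio of 5.52 (2.41 to 14.8). In both, all 4 LPS libraries lay above all untreated ones. *Aim2* had 29 against 37 counts, a ratio of 1.45 (0.868 to 2.45), with overlapping libraries. Microglial markers summed to 327 to 365 CPM in untreated and 321 to 511.5 CPM in LPS tissue. Neutrophil markers (5 genes listed) summed to 0.501 to 1.55 CPM in untreated and 3.05 to 7.62 CPM in LPS tissue, and border macrophage markers to 4.80 to 7.12 and 8.92 to 12.6 CPM, both without overlap, and their part in the members' change was not tested. In bulk tissue a change in the number of cells of a type and a change in RNA per cell cannot be told apart.

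**Figure D4:**
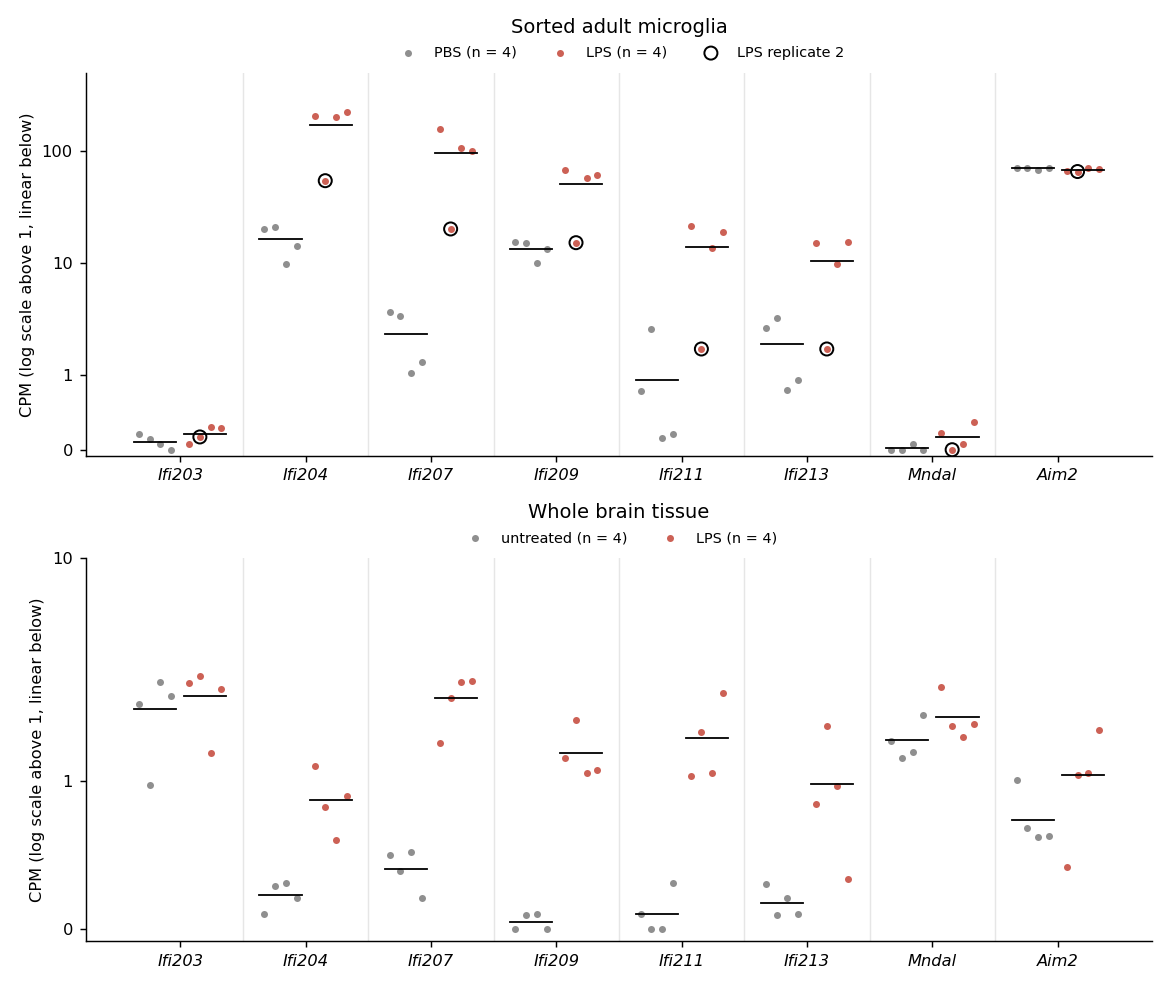
Level of each member (CPM, log scale above 1 and linear below) in sorted adult microglia and in whole brain tissue, 1 point per library, with the arithmetic mean as a black line and LPS replicate 2 of the adult microglia ringed. *Ifi203* and *Mndal* lie near 0 in adult microglia and between 0.970 and 2.94 CPM in brain tissue, and *Aim2* lies between 65.7 and 71.2 CPM in all 8 microglia libraries.

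Whether LPS acted differently on the members in the 2 in vivo tissues was tested as an interaction over 16 samples. edgeR called 0 of 8 members, against 19.7% of 16676 genes, with 1 member (*Mndal*) at an unadjusted p under 0.05. limma-voom also called 0 and DESeq2 called 2. *Ifi203* and *Mndal* had not passed the filter in adult microglia alone, nor *Ifi204*, *Ifi213* and *Aim2* in brain tissue alone. These genes entered the test through the tissue where they are higher, so the number called is no evidence about the family. The log2 LPS effect was larger in microglia for *Ifi207*, by 2.84 (SE 1.93, edgeR adjusted p 0.326), and smaller for *Ifi209*, a difference of -2.55 (SE 1.95, adjusted p 0.326). These are the members that DESeq2 called, at 2.78 (adjusted p 0.00697) and -2.86 (adjusted p 0.0391). Without LPS replicate 2 of the microglia, edgeR called *Ifi207* (3.17, adjusted p 0.0248), *Ifi209* (-2.25, adjusted p 0.0204) and *Mndal* (2.62, adjusted p 0.0364). Without PBS replicate 3 it called *Mndal* alone (3.70, adjusted p 0.0426), a gene with at most 5 counts in any microglia library. Tissue and library kit coincide in this comparison, and the brain controls were not injected.

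**Figure D5:**
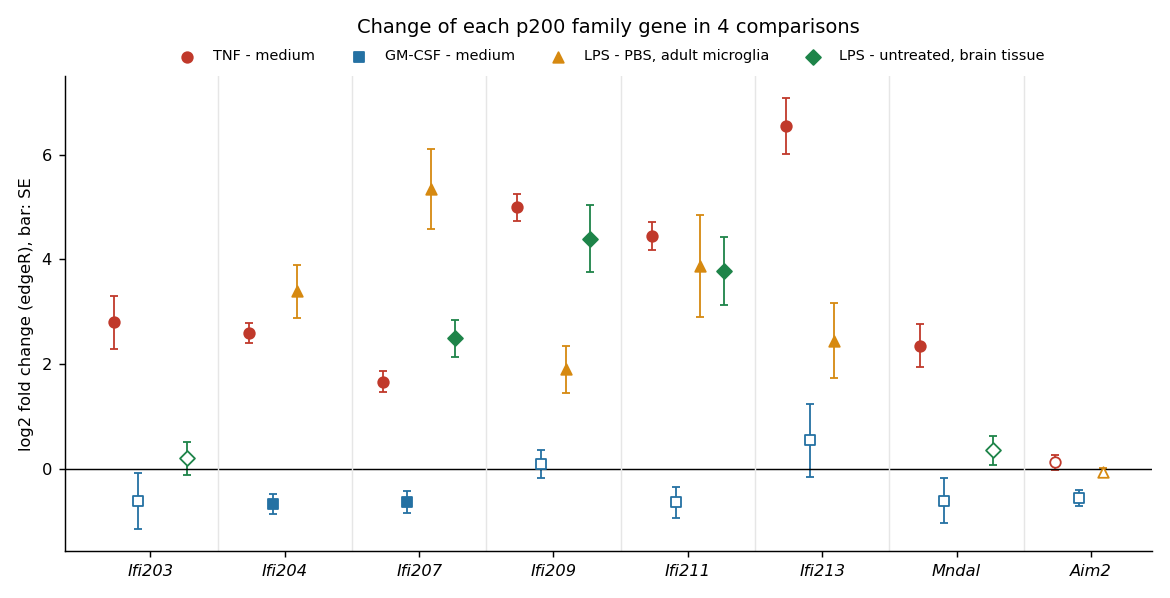
log2 fold change (vertical axis) of each member in the 4 treatment comparisons, with the SE as a bar and filled symbols where the change was called. A missing symbol means that the gene did not pass the low-count filter. *Ifi213* reached 6.54 with TNF, *Ifi207* 5.35 with LPS in adult microglia, and *Aim2* stayed within 0.54 of 0 on the log2 scale.

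Of the neighbours in the cluster, 5 genes outside the 8 were listed in the slice and adult tables and 4 in the brain table. In slice microglia *Ifi205* and *Ifi206* passed the filter, and TNF raised both, against 9.1% of genes called higher. Their counts lay mostly in the TNF libraries, 14747 and 7043 in all, against 62 and 146 over all medium libraries. *Ifi205* was tested because of its level with TNF, so the number of rises is no evidence about the cluster. *Ifi205*, which shares most windows with *Ifi211*, went from 0 to 2.63 CPM in medium to 111 to 312 CPM with TNF, the largest fold of the cluster (log2 7.69, SE 0.44, edgeR adjusted p 4.52e-15). With GM-CSF neither was called. In adult microglia 3 were tested and 3 rose with LPS, led by *Ifi208* (log2 2.77, SE 0.81, adjusted p 0.0167), and in brain tissue none was tested. The share of genes called higher in adult microglia was 14.4%. *Ifi208* had 1 to 15 counts per PBS library and 5 to 69 per LPS library, so it was tested because of its level with LPS. *Ifi202b*, which flanks the cluster, had 0 counts in all 45 libraries. *Ackr1*, the other flanking gene, which encodes a chemokine-binding receptor, was at 0 in adult microglia and was not called in brain tissue (log2 0.47).

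Partners and regulators of the family were counted from lists of genes, beginning with the interferon ligands. *Ifnb1* had 3 counts in all medium, 9 in all TNF and 3 in all GM-CSF libraries, and *Ifng* had 0, 3 and 0, so neither was tested. Counts of the interferon lists stand against 9.1% of all genes called higher and 11.7% lower with TNF, and 4.84% and 5.96% with GM-CSF. The interferon signalling list (15 genes, 13 tested) had 7 genes higher and 1 lower with TNF, with a median log2 fold change of 0.68 against -0.03 over all genes. *Usp18*, a brake on the interferon receptor, rose most (log2 4.33, SE 0.21), and *Ifngr1*, a chain of the interferon gamma receptor, fell (log2 -0.73). With GM-CSF 0 were higher and 5 lower (median -0.44 against -0.04), led by *Usp18* (log2 -1.17). The 12 interferon-induced reference genes were all called higher with TNF (median 4.44), while GM-CSF called 8 lower and 1 higher (median -1.14). *Mx1*, an antiviral GTPase gene, fell most with GM-CSF (log2 -3.09, SE 0.63). *Oas2*, which makes the activator of RNase L, was the 1 called higher, with 1 count in all medium, 724 in all TNF and 34 in all GM-CSF libraries, too few in medium for a fold change. 

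In vivo, LPS called 4 of 13 tested signalling genes higher in adult microglia (median 0.23 against 0.01 over all genes) and 5 of 12 in brain tissue (median 0.34 against 0.00), and *Usp18* led both (log2 2.52 and 2.32). Of all genes, LPS called 14.4% higher in adult microglia and 2.63% in brain tissue. Reference genes called higher numbered 11 of 11 tested in adult microglia (median 2.36), led by *Oas2* (log2 3.35), and 10 of 12 in brain tissue (median 1.95), led by *Ifi44* (log2 2.48). *Ifnb1* had 3 counts over all adult PBS libraries and 4 over the LPS libraries, all 4 in replicate 4, and 0 and 1 over the untreated and LPS brain libraries.

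The AIM2 inflammasome list (11 genes) holds the partners of AIM2 and also other inflammasome sensors and an adaptor, *Nlrp3*, *Nlrc4*, *Mefv* and *Card9*. Its counts, and those of the cGAS-STING list, stand against 9.1% of all genes called higher and 11.7% lower with TNF, 4.84% and 5.96% with GM-CSF, 14.4% and 13% with LPS in adult microglia and 2.63% and 0.55% in brain tissue. With TNF 5 of 10 tested genes were higher and 0 lower (median 0.65), led by *Il1b* (log2 3.70, SE 0.22). *Il1b* was also the only 1 called higher with GM-CSF (log2 1.49, SE 0.22), where *Casp4*, a caspase that senses LPS inside the cell, was lower (log2 -0.78). In adult microglia LPS raised 2 of 9, again led by *Il1b* (log2 4.89, SE 0.45), and lowered *Ninj1*, which acts in membrane rupture (log2 -0.74). In brain tissue 1 of 6 rose, *Pycard* (log2 1.21, SE 0.31). The cGAS-STING list (12 genes), the other cytosolic DNA sensing route, had 4 of 11 higher and 2 lower with TNF (median 0.36), from *Irf7*, a transcription factor that amplifies interferon genes (log2 4.49), to the helicase gene *Dhx9* (log2 -0.83). GM-CSF called 0 higher and 2 lower, led by *Irf7* (log2 -1.22). With LPS 4 of 12 were higher in adult microglia, led by *Ikbke* (log2 6.31, SE 0.63), and 3 of 10 in brain tissue, led by *Zbp1*, a sensor of Z-form nucleic acid (log2 4.48, SE 0.33).

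Set directly against GM-CSF, TNF gave higher levels of 8 of 13 signalling genes, 12 of 12 reference genes, 6 of 10 inflammasome genes (with *Card9* lower, log2 -1.04) and 4 of 11 cGAS-STING genes (with *Dhx9* lower, log2 -0.84). Of all genes, 8.25% were called higher and 7.96% lower in this comparison. Across the 29 slice libraries, log2 levels of 7 members correlated with the mean of the other members at a Pearson r of 0.876 (*Mndal*) to 0.984 (*Ifi211*), and *Aim2* at 0.542. The genes outside the family whose pattern was most like the members' mean, out of 11313, were *Cybb*, a subunit of the NADPH oxidase (r = 0.983), *Phf11d* (0.982), *Rnf149* (0.978), *Sp100*, a nuclear body protein gene (0.978), and *Isg15* (0.978). These libraries share the treatments, and after subtraction of each treatment's mean the values fell to 0.813, 0.669, 0.619, 0.686 and 0.537.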

How the data were processed

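For slice microglia the authors deposited raw gene counts, whole numbers that were not normalized; the labels name STAR 2.7.0a, featureCounts of Subread 1.6.4 and mm10. For adult microglia and brain tissue the authors deposited expected counts, estimated counts that need not be whole and were not normalized, on mm10; which aligner and counter made them, and how reads of near-identical genes were assigned, is not given in the sources used here. Of the members' 64 values per table, 57 in adult microglia and 44 in brain tissue were not whole, and they were rounded. The brain table lists 92 rows that name no gene, which held 0 counts and were left out. Slice reads had 75 bases and the others 50.

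Counts were tested with edgeR 4.0.16 (R 4.3.3; quasi-likelihood F test, TMM, robust estimation, minimum count 10 and minimum total 15 in the expression filter), with Benjamini-Hochberg adjustment over all genes of a table. The slice samples were fitted together, adult microglia and brain tissue each alone, and the interaction over both. Per the study's methods the in vivo samples came from independent mice; for slice samples, p-values measure the spread between pools of slices, which the labels do not tie to separate animals. *Nlrp3*, *Nlrc4*, *Mefv* and *Card9* were named after their values were seen. The tests were checked on simulated counts. Alternatives were DESeq2 1.42.0, limma-voom (limma 3.58.1), other scalings and filters, the replicate number or title code as a term, and leaving out libraries. The 8 members and all gene lists were chosen with earlier results of these data known. All members are named in every comparison, and from each list the gene with the largest called rise and the largest called fall; *Ccr2*, *Ly6c2*, *Ly6i*, *Plac8*, *Il1b* and *Ikbke* by library, *Oas2*, *Ifnb1*, *Ifng*, *Ifi202b* and *Ackr1* were named beside them. The symbols Mnda, Pyhin1, Pydc3, Pydc4 and Pydc5 of the cluster list were not found in the annotation (Mnda, Pyhin1 and Pydc4 are older symbols of *Ifi211*, *Ifi209* and *Ifi213*). Names and coordinates are from GENCODE M21, promoters from RefSeq.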

Additional observations from a re-analysis of the deposited data

Results flagged for a closer look

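Of 48 combinations of a member and a group of 4 to 10 libraries, 7 held a library whose gap to its nearest neighbour exceeded Dixon's 95% limit, and chance alone flags about 1 in 20. In adult microglia *Ifi204* was at 54.5 CPM in LPS replicate 2 and at 200.9 to 225 CPM in the other LPS libraries, the library that also stood low for the other called members. PBS replicate 3 was lowest for *Aim2*, at 67.3 CPM beside 70.6 to 71.2 CPM, and was the only PBS library with a count of *Mndal* (0.0804 CPM, 1 count). In medium, *Ifi204* was highest in replicate 5, at 75.7 CPM beside 30.2 to 52.4 CPM, and *Ifi209* lowest in replicate 4, at 1.30 CPM beside 6.12 to 10.9 CPM. With GM-CSF, *Ifi203* was highest in replicate 8, at 3.95 CPM beside 0 to 1.598 CPM. In untreated brain, *Aim2* was highest in replicate 1, at 1.00 CPM beside 0.620 to 0.679 CPM, which is 10 counts beside 6 to 7.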

How the results depend on the processing

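The 7 members raised by TNF were called under all 12 alternatives, and TNF against GM-CSF called 7 or 8. With GM-CSF against medium the 2 calls became 0 with total counts in place of TMM, 1 without the low-count filter, 1 with the title code as a term and 0 within title codes 2A and 2B, and the sign of *Ifi213* turned with limma-voom (-0.015) and within codes 2A and 2B (-0.11). Total counts moved the median change over all genes (log2) from -0.04 to 0.07 for GM-CSF and from -0.02 to -0.19 for TNF against GM-CSF, and the split of calls from 548 higher and 674 lower to 817 and 459, and from 933 and 900 to 694 and 1514. In brain tissue the 3 calls became 5 without the filter, where *Ifi204* (1.87) and *Ifi213* (2.36) entered, and 2 with expected counts left unrounded, where *Ifi211* was not tested. No member was tested with the stricter filter, and leaving out 1 replicate left 3 in each case; *Ifi203* ranged from -0.034, without untreated replicate 2, to 0.40. In adult microglia leaving out 1 replicate left 4 to 5, and testing without the filter left 4, with *Ifi213* not called (2.43, edgeR adjusted p 0.0699). For the interaction, DESeq2 called 2 in place of 0, and leaving out 1 replicate gave 0 to 3. There *Ifi211* and *Ifi213*, whose edgeR values were 0.05 and 0.06, changed sign with DESeq2 (-0.084 and -0.040) and ranged from -1.29 to 1.29 and from -0.30 to 0.50 over left-out libraries. The cause of these changes was not tested. The replicate block, a term for the replicate number, left 2 of the 5 members in adult microglia (*Ifi204* and *Ifi207*), gave 3 in place of 2 for GM-CSF, turned *Ifi211* and *Ifi213* in the interaction (-0.13 and -0.062) and changed no other count of members. Same-numbered samples correlated at -0.0779 to 0.184 in their deviations, and not every sample was closest to its own number. Over all genes, the p limit alone called 4476 in place of 2353 for TNF, 2892 in place of 1222 for GM-CSF, 3486 in place of 1833 between them, 6703 in place of 3563 in adult microglia, 1533 in place of 479 in brain tissue and 5136 in place of 3289 for the interaction; codes 2A and 2B called 785 for GM-CSF.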
